A study of Mus musculus with 2 samples.

Results

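Osteopontin, encoded by Spp1, and 6 genes for its receptors were followed through the cells of 2 mouse tumours. The members are 7 genes taken by symbol from the 34097 genes listed in the files: the ligand Spp1, and the receptor genes Cd44, Itgav, Itgb1, Itgb3, Itgb5 and Itga4. Each symbol matched 1 row. The set was chosen by gene name with the Spp1 UMI levels of macrophages in these same 2 libraries already known, so the member values in both libraries are given as a description.

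By their labels the tumours are lung cancer xenografts made of LLC, the Lewis lung carcinoma line of the mouse. RNA of single cells was counted with the 10x Genomics platform as unique molecular identifiers (UMIs), each standing for 1 captured transcript. The control tumour is labelled NC and the other carried a short hairpin RNA against Gfpt2, an enzyme that feeds the hexosamine pathway; the study asked about the immune microenvironment and cell-cell communication. Each group is 1 library, the labels name neither the mouse strain nor the sex, and nothing says how many animals a library holds, so no difference between the tumours has a replicate check and none was tested. Levels are counts per 1000000 UMIs of the same cells (CPM), with exact 95% Poisson intervals in brackets. Ratios are log2 of knockdown over control, with the widest range that both intervals permit, and all intervals cover counting error only.

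Osteopontin is a secreted, phosphorylated glycoprotein of the SIBLING family, first known from bone and abundant in tumour macrophages. It binds integrins of the αv class through an arginine-glycine-aspartate motif, binds α4 and α9 integrins through a neighbouring stretch that thrombin exposes, and is also a ligand of CD44, the hyaluronan receptor. T cells and NK cells make it after activation, and osteopontin from myeloid cells is known to restrain T cells through CD44.

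The coding stretch that holds the integrin motif is shown because it is the part of Spp1 that ties the ligand to Itgav, Itgb1, Itgb3 and Itgb5. It lies in exon 6 of 7 of the GENCODE M21 transcript, on the plus strand of GRCm38 at chr5:104439445-104439525. The arginine, glycine and aspartate codons are in capitals and begin at codon 144 of the 294 codons; the lower-case bases after them encode the stretch for α4 and α9 integrins.
Spp1: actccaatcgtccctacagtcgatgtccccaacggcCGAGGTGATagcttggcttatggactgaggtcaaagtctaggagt

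The control library held 11977 cells and 165824226 UMIs, and the knockdown library 12853 cells and 138402860 UMIs; 10662 and 11450 cells were kept, and 37 barcodes occurred in both. Macrophages were cells with at least 10 C1qa, C1qb and C1qc UMIs per 10000 (3990 control, 4556 knockdown). T cells had at least 2 UMIs of Cd3d, Cd3e and Cd3g (786 and 676). Tumour-like cells had no Ptprc, fewer than 5 Lyz2 UMIs per 10000 and at least 5000 UMIs (4986 and 5211). Tumour-like cells carried the chromatin protein gene Hmga2 at 219.7 and 218.5 CPM, while the epithelial genes Epcam, Krt8 and Krt18 were each at or under 9 UMIs per library. Gfpt2 in tumour-like cells was at 2.05 CPM (212 UMIs) in the control tumour and 0.650 (57 UMIs) in the knockdown tumour. The macrophage gate of the knockdown library also held more RNA of tumour and matrix genes, with the 10 LLC genes at 1257 and 2622 CPM and the 6 fibroblast genes at 295 and 819 CPM. A set of macrophages without a UMI of Hmga2, Dcn or Col3a1 (2158 and 2023 cells) is therefore given beside the whole gate. In it the LLC genes were at 670 and 687 CPM and Xist, at 2.875 and 3.99 CPM in tumour-like cells, at 538.5 and 543 CPM. The T cell gate held more of both gene sets than the macrophage gate, with LLC genes at 4747 and 4010 CPM and fibroblast genes at 1048 and 859. The LLC genes were at 2646 and 2453 CPM in the NK-like cells described below. In monocyte-like cells outside the NK gate they were at 4664 and 3873 CPM. The part of such RNA in the levels of these classes was not tested.

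**Figure D1:**
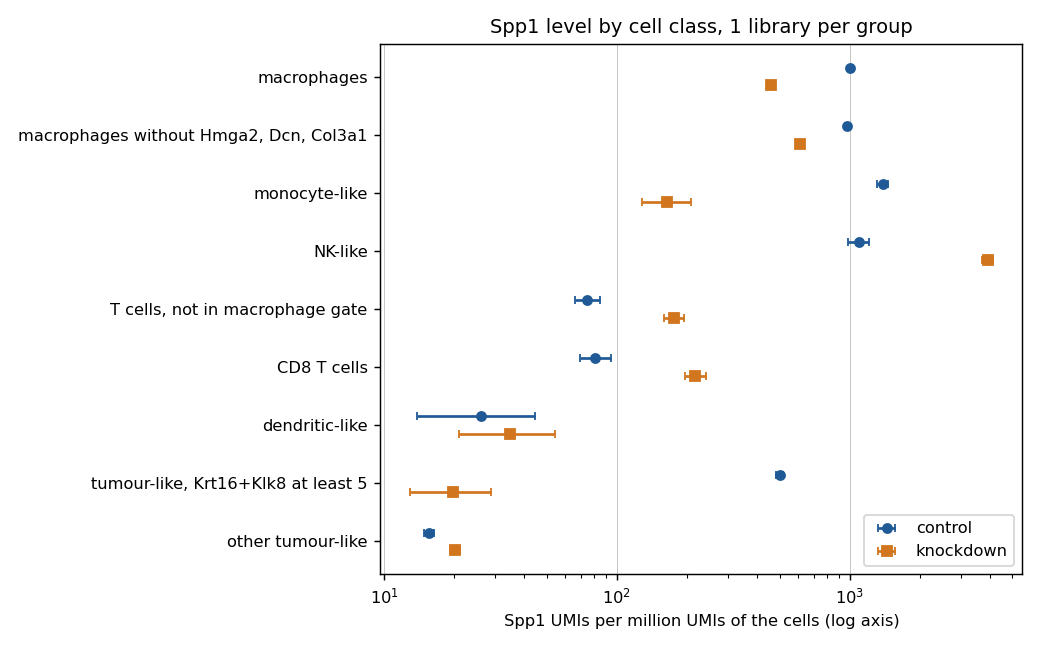
Spp1 CPM (log axis) by cell class in the control (circles) and knockdown (squares) library, with exact 95% Poisson intervals. Macrophages, monocyte-like cells outside the NK gate and tumour-like cells with Krt16 or Klk8 lie lower in the knockdown tumour, and NK-like and T cells lie higher.

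Macrophages were the main source of Spp1 in both tumours. They held 72.8% of its UMIs in the control tumour and 72.0% in the knockdown tumour, with 37.4% and 39.8% of the cells. Spp1 was at 1006 CPM (993 to 1019, 23869 UMIs) in control macrophages and 457 CPM (448 to 466, 9837 UMIs) in knockdown macrophages. The knockdown level was the lower one, at a log2 ratio of -1.14 (-1.18 to -1.09). Of the 6 members with at least 100 UMIs in this gate, Spp1 alone differed by 1.5-fold or more. Over all 10753 genes measured there, 1.26% were at least 1.5-fold lower and 10.5% at least 1.5-fold higher in the knockdown tumour.

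The Spp1 difference was smaller where the tumour RNA was level. In macrophages without Hmga2, Dcn or Col3a1, Spp1 was at 978 CPM (960 to 996) in the control tumour and 614 (596 to 631) in the knockdown tumour, for a log2 ratio of -0.67 (-0.74 to -0.60). Of 8451 genes measured in these cells, 1.79% were at least 1.5-fold lower and 1.34% at least 1.5-fold higher. Genes of other classes also differed in this set: the 5 monocyte genes were at 172 and 89.9 CPM, with Chil3 at 44.5 and 0.906, and the 5 NK genes at 15.3 and 75.3 CPM. The part of these genes in the Spp1 ratio was not tested. The part of the tumour RNA in the difference between -1.14 and -0.67 was not tested.

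Few macrophages made most of the transcript. The median macrophage had 0 Spp1 UMIs in both libraries, and the 10% of cells with the most held 80.2% of the macrophage Spp1 UMIs in the control tumour and 85.75% in the knockdown tumour. Cells were thinned to 3000 UMIs each to compare shares, which left out 913 control and 1705 knockdown macrophages. Of the thinned cells, 41.2% (39.5% to 43.0%) had a Spp1 UMI in the control tumour and 29.1% (27.4% to 30.8%) in the knockdown tumour. Unthinned, the shares were 44.7% and 29.3%. Thinned tumour-like cells low in Krt16 and Klk8, a class low in Spp1, had 3.11% and 3.01%. This class is not free of Spp1, since 18 and 30 of its cells had at least 10 Spp1 UMIs unthinned. Among thinned macrophages with Spp1 the mean was 6.53 UMIs in the control tumour and 4.86 in the knockdown tumour, so both the share and the amount per positive cell were lower.

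Ccl6, Lgals3 and Ctsd were the genes whose counts followed Spp1 most closely from macrophage to macrophage. The 10 with the highest lower Pearson correlation (log2 of UMIs plus 1, 3077 control and 2851 knockdown thinned cells, 10117 genes ranked) were Ccl6, Lgals3, Ctsd, Fabp5, Ftl1, Gpnmb, Lyz2, Cd9, Capg and Fth1. The correlations of Ccl6, a chemokine, were 0.33 and 0.36, those of Lgals3, which encodes galectin 3, 0.33 and 0.37, those of Capg, an actin-capping protein gene, 0.26 and 0.26, and those of Fth1, the ferritin heavy chain gene, 0.25 and 0.30. At the other end stood the MHC class II gene H2-Eb1 (-0.27 and -0.21), AW112010 (-0.25 and -0.21), Tmem176b (-0.25 and -0.20), Tmem176a (-0.20 and -0.18) and the class II gene H2-Ab1 (-0.25 and -0.18). None of the 5 receptor genes with enough counts followed Spp1, with correlations from -0.05 to 0.07. The genes were ranked by the lower of their 2 correlations, so that both are high follows from the choice, and all values are descriptions from sparse cells.

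Spp1 and Cxcl9, a chemokine that draws T cells, are often set against each other as the 2 poles of tumour macrophages. Of thinned macrophages, 29.8% (28.2% to 31.4%) had Spp1 without Cxcl9 in the control tumour and 20.4% (18.9% to 21.9%) in the knockdown tumour. Cxcl9 without Spp1 was found in 22.6% (21.1% to 24.1%) and 24.5% (22.9% to 26.1%), and both genes in 11.5% and 8.73%. The fewer Spp1 cells of the knockdown library stood beside more cells with neither gene, 36.1% in the control tumour and 46.4% in the knockdown tumour. Cxcl9 itself was at 443 and 340 CPM, for a log2 ratio of -0.38 (-0.44 to -0.32), and in the macrophages without Hmga2, Dcn or Col3a1 at 453 and 429 CPM (-0.08, -0.17 to 0.01).

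Other genes of the Spp1 macrophage programme were mixed. Of 19 genes read, all measured, 3 were at least 1.5-fold lower and 1 higher in knockdown macrophages, where 1.26% of all genes were lower and 10.5% higher, with a median log2 ratio of -0.35 beside 0.10 over all genes. The lower ones were the macrophage elastase gene Mmp12 (186 and 94.7 CPM, -0.97), the lysosomal glycoprotein gene Gpnmb (73.2 and 43.1, -0.76) and the lipase gene Lpl (28.2 and 13.3, -1.09). The higher one was the growth factor gene Vegfa (107 and 164, 0.61). In macrophages without Hmga2, Dcn or Col3a1, 3 were lower, namely Mmp12 (-0.69), Gpnmb (-0.76) and the fibronectin gene Fn1 (260 and 157 CPM, -0.72), and Vegfa was again higher (0.64), with a list median of -0.17 beside 0.00. Of all genes there, 1.79% were lower and 1.34% higher.

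In macrophages most genes of the list set against Spp1 stayed within 1.5-fold. Of 11 genes of the Cxcl9 side, 1 was at least 1.5-fold higher and 0 lower in knockdown macrophages, where 10.5% of all genes were higher. The counts were the same in those without Hmga2, Dcn or Col3a1, where 1.34% of all genes were higher and the list's median was 0.38 beside 0.00 over all genes. There the class II genes H2-Aa (2971 and 4277 CPM, 0.53), H2-Ab1 (4377 and 6455, 0.56) and Cd74 (0.52), the invariant chain, stayed under 1.5-fold, and Cxcl11 passed it (8.82 and 14.8, 0.74, 0.18 to 1.30). In the T cell gate 5 of 9 measured genes of the list were at least 1.5-fold higher, beside 2.07% of all genes, and in tumour-like cells 4 of 10, beside 2.33%; in T cells outside the macrophage gate it was 2 of 9, beside 1.5%, and in tumour-like cells without Krt16 or Klk8 2 of 10, beside 2.52%. Of 12 transcription factor genes tied to Spp1, 1 was at least 1.5-fold higher and 1 lower in the whole macrophage gate. Over all genes there, 10.5% were higher and 1.26% lower. The higher one was Ets1 (22.0 and 45.5 CPM, 1.04), and the lower one Tfec, a relative of Mitf (19.8 and 12.6, -0.64). Neither passed 1.5-fold in macrophages without Hmga2, Dcn or Col3a1, at 0.45 and -0.37.

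Tumour-like cells carried little Spp1, and in the control tumour it sat in a small set of cells. Over all tumour-like cells Spp1 was at 44.3 CPM (43.0 to 45.6, 4590 UMIs) in the control tumour and 20.1 (19.2 to 21.1, 1762 UMIs) in the knockdown tumour, for a log2 ratio of -1.14 (-1.25 to -1.03). Spp1 was the only 1 of 5 members with at least 100 UMIs there to differ by 1.5-fold, where 0.736% of 12372 genes were lower and 2.33% higher by that measure. Cells with at least 5 UMIs in sum of the keratin gene Krt16 and the protease gene Klk8, a split chosen with the data in view, numbered 232 in the control tumour and 58 in the knockdown tumour. In them Spp1 was at 499.8 CPM (482 to 518, 3070 UMIs) in the control tumour and 19.65 (12.8 to 28.8, 26 UMIs) in the knockdown tumour, for a log2 ratio of -4.67 (-5.33 to -4.07). The 2 sets were unlike in makeup, since 135 of the 232 control cells but 2 of the 58 knockdown cells had both genes. Spp1 was at 606 CPM (581 to 632) in the 135 and at 0 UMIs in the 2. Cells with Klk8 alone (76 and 28) were at 430 CPM (401 to 460) and 36.3 (23.3 to 54.1), and those with Krt16 alone (21 and 28) had 19 and 2 Spp1 UMIs.

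Outside that set the direction turned. Spp1 in the other tumour-like cells was at 15.6 CPM (14.8 to 16.4, 1520 UMIs) in the control tumour and 20.1 (19.2 to 21.1, 1736 UMIs) in the knockdown tumour, for a log2 ratio of 0.37 (0.23 to 0.51). The macrophage genes C1qa, C1qb, C1qc and Apoe were also higher in these cells, at 502 and 623 CPM in sum. Their part in the ratio was not tested. The share of thinned cells with Spp1 was level, at 3.11% and 3.01%. The lower level over all tumour-like cells therefore rested on 232 control cells. Of these, 86 (37.1%, 30.8% to 43.6%) had at least 10 Spp1 UMIs, against 0 of 58 in the knockdown tumour, which allows a share of up to 6.16% by the exact binomial limit. The 3 richest control cells held 10.2% of the set's Spp1 UMIs, so the level was spread over many cells.

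The sets with Krt16 or Klk8 also differed between the tumours in other genes. Gfpt2 was at 22.3 CPM (18.7 to 26.4, 137 UMIs) in the control set and 3.78 (1.23 to 8.82, 5 UMIs) in the knockdown set. In the other tumour-like cells Gfpt2 was at 0.769 and 0.602 CPM, with a log2 range from -1.10 to 0.38 that includes 0. The defining genes were lower too, Krt16 at 569 and 275 CPM and Klk8 at 455 and 183. Prkg2, a cGMP-dependent kinase gene, was at 537 and 99.8 CPM, and the keratin gene Krt14 at 11.7 and 123. These genes were named after their values were seen. Per 1000 UMIs of C1qa, C1qb, C1qc and Apoe, which mark macrophage RNA, Spp1 was at 914 (882 to 947) in the control set and 32.8 (21.4 to 48.1) in the knockdown set, 31.0 and 32.3 in the other tumour-like cells of the 2 libraries, and 13.7 and 7.50 in the macrophages.

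Lymphocytes stood on the other side of the comparison. NK-like cells, which lay outside the macrophage and T cell gates and had at least 2 UMIs of Ncr1, Klrb1c and Klre1, numbered 50 in the control tumour and 54 in the knockdown tumour. Spp1 in them was at 1093 CPM (982 to 1213, 354 UMIs) in the control tumour and 3926 (3717 to 4143, 1322 UMIs) in the knockdown tumour, for a log2 ratio of 1.85 (1.62 to 2.08). Of 475 genes with at least 100 UMIs in this gate, 3.79% were at least 1.5-fold higher and 3.79% lower. The 54 knockdown cells held 9.68% of all Spp1 UMIs of their library, where the 50 control cells held 1.08%. Most of these UMIs, 289 of 354 and 1197 of 1322, lay in the 19 and 23 NK-like cells that also passed the gate for monocyte-like cells (at least 4 UMIs of Ly6c2, Plac8, Ccr2 and Chil3), where Spp1 was at 1910 and 5804 CPM (1.60, 1.35 to 1.86). Of the 4 genes of that gate, these cells had 108 and 223 UMIs of Plac8 and 48 and 53 of Ccr2, but 5 and 7 of Ly6c2 and 0 of Chil3. In the 31 and 31 NK-like cells that did not pass it, Spp1 was at 376.5 CPM (291 to 480) and 958 (797 to 1141), for a log2 ratio of 1.35 (0.73 to 1.97).

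A few NK-like cells set those levels. Spp1 was found in 22 of 50 control and 32 of 54 knockdown cells, and 9 and 11 cells had at least 10 UMIs. The 3 richest cells had 135, 47 and 26 UMIs in the control tumour and 475, 217 and 206 in the knockdown tumour. Without those 3 cells the levels were 499 CPM (422 to 587) and 1510 CPM (1370 to 1661), so the knockdown library stayed the higher one.

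T cells outside the macrophage gate (665 and 546 cells) had Spp1 at 74.6 CPM (65.7 to 84.3, 256 UMIs) in the control tumour and 176 (160 to 194, 422 UMIs) in the knockdown tumour, for a log2 ratio of 1.24 (0.92 to 1.56). In each library 3 cells held 43.0% and 37.9% of these UMIs, and without them the levels were 42.75 CPM (36.1 to 50.3) and 109.9 (97.0 to 124). Of the 6 members with at least 100 UMIs there, Spp1 was higher and Itgb5 lower by 1.5-fold or more, where 1.5% of 5284 genes were higher and 1.27% lower. T cells with Cd8a or Cd8b1 and no Cd4 (420 and 352 cells) were at 80.8 CPM (69.1 to 93.9) and 217 (195 to 241), for a log2 ratio of 1.43 (1.06 to 1.80). Those with neither Cd4 nor Cd8 UMIs were at 69.5 and 75.4 CPM (0.12, -0.63 to 0.85). Cells with Spp1 numbered 78 of 665 and 63 of 546 unthinned, and 30 of 308 (9.74%, 6.67% to 13.6%) and 34 of 230 (14.8%, 10.5% to 20.04%) when thinned, and those with at least 10 UMIs numbered 6 and 11. Over the whole T cell gate, which includes 121 control and 130 knockdown cells that also pass as macrophages, the levels were 163 and 210 CPM (0.37, 0.15 to 0.59), and with no doublet removal the ratio was -0.08.

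Lymphocytes with Spp1 had more UMIs of several granzyme genes than those without. In NK-like cells with at least 3 Spp1 UMIs (14 control, 22 knockdown), Gzmd was at 3774 CPM in the control tumour and 9869 in the knockdown tumour, and in those with 0 (28 and 22) it was at 18.8 CPM and 0 UMIs. Gzmf was at 3881 and 12829 CPM in the cells with Spp1 and at 0 UMIs in both sets without. Gzma, another granzyme gene, ran the other way, at 1916 and 775 CPM with Spp1 and 3220 and 8884 CPM without. The NK-like cells with Spp1 had medians of 8235 and 9114 UMIs against 3920 and 2526 in those without.

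T cells with Spp1 also had more of some of these genes, at lower levels. In T cells with at least 3 Spp1 UMIs (18 and 28), Gzmd was at 184 CPM (137 to 242) and 1299 (1097 to 1528), against 3.05 and 0.525 CPM in those with 0. Gzmg was at 0 UMIs in control T cells with and without Spp1, and at 338 CPM and 0 UMIs in the knockdown ones. Gzma was at 0 UMIs in T cells with Spp1 of both libraries and at 496 and 155 CPM in those without. Tnfrsf9, an activation receptor gene, was at 351 CPM with Spp1 and 434 without in the control tumour, and at 1904 and 611 CPM in the knockdown tumour. Prf1, which encodes perforin, was at 401 and 1833 CPM with Spp1 and at 116 and 249.5 without. The T cells with Spp1 were deeper too, with medians of 8080 and 3941 UMIs against 2671 and 2498 in those without, and the part of depth in these differences was not tested. Apoe was at 528 CPM (445.5 to 620.5) and 676 (533 to 846.5) in the cells with Spp1, against 701 (670 to 734) and 667 (631 to 705) in those without. Per 1000 UMIs of the C1q genes and Apoe, Spp1 was at 86.6 and 215 in T cells and 1647 and 4825 in NK-like cells, all above the 13.7 and 7.50 of macrophages. The genes of these 2 paragraphs were named after their values were seen.

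**Figure D2:**
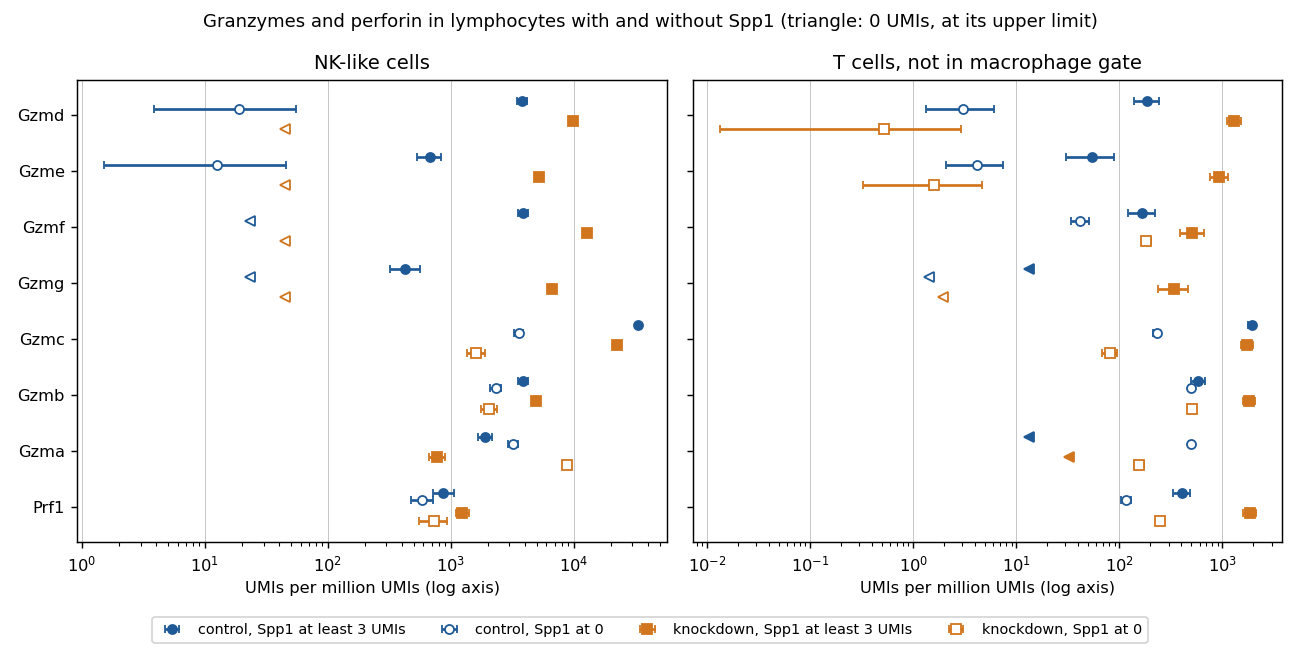
Granzyme and perforin CPM (log axis) in NK-like cells (left) and T cells outside the macrophage gate (right), for cells with at least 3 Spp1 UMIs (filled) and with 0 (open), with exact 95% Poisson intervals and triangles at the upper limit of a count of 0. Gzmd in NK-like cells lies at 3774 and 9869 with Spp1 and at 18.8 CPM (control) and 0 UMIs (knockdown) without.

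The direction in monocyte-like cells turned on whether NK-like cells were counted among them. Cells with a Ptprc UMI, at least 4 UMIs of Ly6c2, Plac8, Ccr2 and Chil3 and outside the macrophage and T cell gates (169 and 82) had Spp1 at 1461 CPM (1390 to 1534) and 2020 (1911 to 2135), for a log2 ratio of 0.47 (0.32 to 0.62). Without the 19 and 23 of them in the NK gate (150 and 59 cells), Spp1 was at 1389 CPM (1315 to 1466, 1312 UMIs) in the control tumour and 164 (128 to 208, 69 UMIs) in the knockdown tumour, for a log2 ratio of -3.08 (-3.52 to -2.66). In both libraries 3 cells held most of it, 53.7% and 81.2% of the UMIs, and without them the levels were 663 and 33.7 CPM. The 10 macrophage genes were at 8478 and 4862 CPM in these cells, and their part in the difference was not tested. Dendritic-like cells (52 and 46) had 13 and 19 Spp1 UMIs, too few to set apart.

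**Figure D3:**
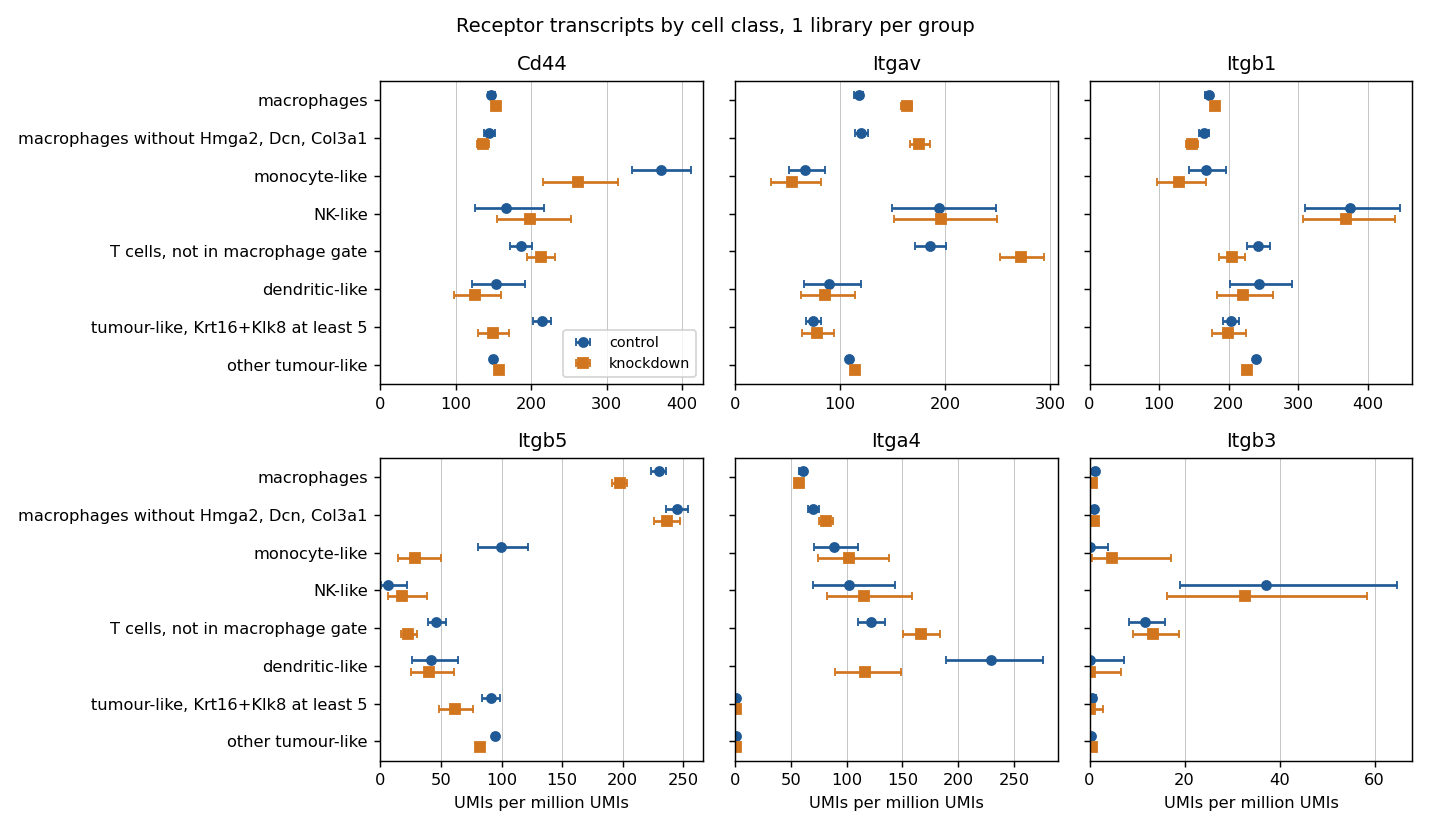
CPM of the 6 receptor genes by cell class in the control (circles) and knockdown (squares) library, with exact 95% Poisson intervals and axes from 0. Itgb5 is highest in macrophages, Itga4 is near 0 in tumour-like cells, and Itgav lies higher in knockdown macrophages and T cells.

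No receptor gene with at least 100 UMIs in a library differed by 1.5-fold between the tumours in the 3 gates of the rule. In 14 of the 18 pairs of a receptor gene and 1 of the 3 gates a library had at least 100 UMIs, and in 0 of those did the libraries differ by 1.5-fold. In the T cell gate, 1.08% of 6002 genes were at least 1.5-fold lower in the knockdown tumour and 2.07% higher. Cd44, the hyaluronan and osteopontin receptor, was at 147 CPM (142 to 152) and 153 (148 to 158.5) in macrophages, for a log2 ratio of 0.06 (-0.04 to 0.16). In tumour-like cells it was at 153 and 158 CPM (0.05, 0.00 to 0.09), and in T cells at 181 and 204 CPM (0.17, -0.05 to 0.39). In all 3 gates the range included 0, with an upper end of 0.39 at most.

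Among classes of at least 50 cells Cd44 was highest in the monocyte-like cells outside the NK gate, at 372 CPM (334 to 412.5) in the control tumour and 262 (215 to 315) in the knockdown tumour, where the interval overlaps that of T cells outside the macrophage gate (194.5 to 232). In the control cells with Krt16 or Klk8, the tumour-like set rich in Spp1, Cd44 was at 214 CPM (202 to 226), above the 149 CPM (146 to 151) of the other tumour-like cells. In the knockdown library the 2 sets were at 149 (129 to 171) and 158 CPM (155 to 161), whose intervals overlap.

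Itgav, the αv chain that pairs with Itgb1, Itgb3 or Itgb5, was higher in macrophages and T cells of the knockdown tumour. In macrophages it was at 118 CPM (114 to 122) in the control tumour and 163 (158 to 169) in the knockdown tumour, for a log2 ratio of 0.47 (0.37 to 0.57). It was likewise higher in macrophages without Hmga2, Dcn or Col3a1 (120 and 176, 0.54, 0.39 to 0.70). In T cells it was at 180 and 268 CPM (0.57, 0.37 to 0.78), and in those with Cd8 at 182 and 298 CPM (0.71, 0.43 to 0.99). T cells with neither Cd4 nor Cd8 UMIs were level, at 193 and 195 CPM (0.01, -0.44 to 0.46). Tumour-like cells were nearly level at 107 and 113 CPM (0.08, 0.03 to 0.14), and NK-like cells at 194.5 and 196 CPM.

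Itgb1, the shared β1 chain, was even across most classes. It was at 171 and 181 CPM in macrophages (0.08, -0.01 to 0.17), 237 and 226 in tumour-like cells (-0.07, -0.10 to -0.03) and 231 and 207.5 in T cells (-0.16, -0.36 to 0.05). T cells with Cd8 were lower in the knockdown tumour, at 266 and 192 CPM (-0.47, -0.75 to -0.19). Those with neither Cd4 nor Cd8 UMIs were not, at 204 and 235.5 CPM (0.20, -0.22 to 0.62). The highest Itgb1 level among classes of at least 50 cells was in NK-like cells, at 374 and 368 CPM.

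Itgb5, the β5 chain of the vitronectin receptor, had its highest level in macrophages, while tumour-like cells, with more UMIs in all, held 60.4% and 59.0% of its UMIs and macrophages 33.7% and 35.0%. Macrophages were at 230 CPM (224 to 236) in the control tumour and 197 (192 to 203) in the knockdown tumour, for a log2 ratio of -0.22 (-0.30 to -0.14). Without Hmga2, Dcn or Col3a1 they were at 245 and 237 CPM (-0.05, -0.17 to 0.07), a range that includes 0. Tumour-like cells were at 94.3 and 81.8 CPM (-0.20, -0.27 to -0.14). T cells outside the macrophage gate had 159 and 55 UMIs, at 46.3 and 23.0 CPM (-1.01, -1.64 to -0.40). The 6 fibroblast genes were at 1153 and 831 CPM in them, and the part of such RNA in the difference was not tested. The whole T cell gate was at 55.7 and 50.6 CPM (-0.14, -0.56 to 0.28), a range that includes 0. That gate gave 0.25 without Hmga2, Dcn or Col3a1 cells, on 36 UMIs in each library, and its 11 alternatives ran from -0.84 to 0.74.

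Itga4, the α4 chain, was found mainly in leukocytes. Tumour-like cells had 88 and 67 UMIs, at 0.849 and 0.764 CPM, against 60.5 and 57.2 CPM in macrophages (-0.08, -0.24 to 0.07). T cells were at 120 and 161 CPM (0.43, 0.18 to 0.69), the higher level again in the knockdown tumour. Over the 11 alternatives of processing this ratio ran from 0.01 to 0.43. It was 0.12 when thinned to 3000 UMIs and 0.25 without Hmga2, Dcn or Col3a1 cells. Dendritic-like cells were at 229 CPM (189 to 275) in the control tumour and 117 (89.9 to 149) in the 46 knockdown cells.

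Itgb3, the β3 chain of the classic osteopontin receptor, was almost absent. Macrophages had 25 and 13 UMIs and tumour-like cells 30 and 52 UMIs in the whole library, levels at or under 1.05 CPM. T cells had 46 and 35 UMIs, at 11.05 and 11.5 CPM, and NK-like cells 12 and 11, at 37.0 and 32.7 CPM. In tumour-like cells the levels were 0.2895 and 0.593 CPM, for a log2 ratio of 1.03 with a range of 0.10 to 1.99, on counts under the minimum of 100 UMIs. In macrophages, T cells and NK-like cells a difference of Itgb3 between the tumours was not detectable at this depth.

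**Figure D4:**
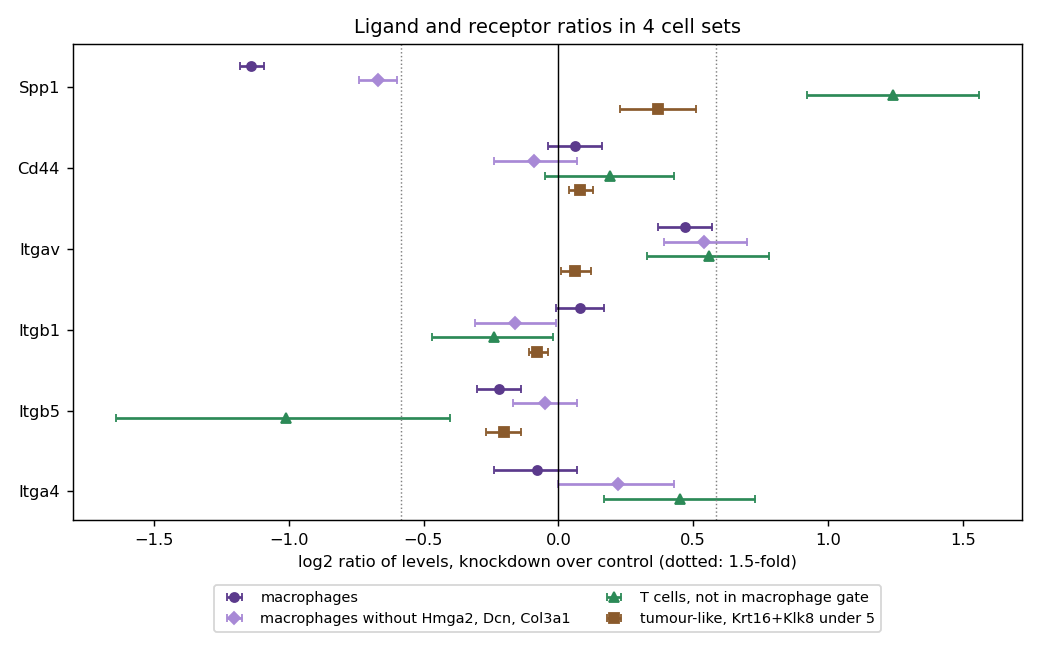
Log2 ratio of knockdown over control for the ligand and 5 receptor genes in 4 cell sets, with the range that the 2 Poisson intervals allow and dotted lines at 1.5-fold. Spp1 lies at -1.14 and -0.67 in the macrophage sets and 1.24 in T cells, while Itgav lies above 0 in macrophages and T cells.

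The chains of 1 integrin were found together about as often as their separate shares would give. Itgav and Itgb5 were both present in 13.8% (12.6% to 15.1%) of thinned control macrophages and 14.5% (13.2% to 15.9%) of knockdown ones, where the products of the shares are 12.9% and 13.9%. Itgav and Itgb1 were both present in 14.5% and 15.5% of tumour-like cells, with products of 14.01% and 14.9%. Itga4 and Itgb1 were together in 15.3% and 12.6% of thinned T cells outside the macrophage gate and in 0.0602% and 0.1535% of tumour-like cells.

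Further partners of the system were read from fixed lists. Of 15 other ligands of these receptors, 12 were measured in macrophages and 6 were at least 1.5-fold higher in the knockdown tumour. The 4 with the largest ratios were Col1a1, Has2, Vcan and Hspg2, genes of the matrix or its synthesis at 2.57 to 31.9 CPM in the control. Over all genes of this gate 10.5% were higher. In macrophages without Hmga2, Dcn or Col3a1, 0 of 8 were higher and 1, Fn1, was lower, beside 1.34% and 1.79% of all genes. Of 12 adhesion adaptors, 4 were higher in the whole gate, namely Parva, Fermt2, Ptk2 and Vcl, and 0 of 9 without Hmga2, Dcn or Col3a1. Of the 8 genes named as higher, Vcan (-0.01) and Vcl (-0.17) still had 100 UMIs in a library there.

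Among other integrin chains that bind osteopontin, Itga9, whose product binds the stretch exposed by thrombin, was at 91.9 and 131 CPM in macrophages without Hmga2, Dcn or Col3a1 (0.51, 0.33 to 0.69). In tumour-like cells 1 of 2 measured chains was at least 1.5-fold higher in the knockdown tumour, namely Itgb8, a partner of the αv chain (4.99 and 7.69 CPM, 0.62, 0.39 to 0.86). Of 6 enzymes that cleave or cross-link osteopontin, 2 were lower there, the gelatinase gene Mmp2 (56.8 and 30.25 CPM, -0.91) and Mmp12 (2.86 and 1.54 CPM, -0.89). Of 12 other ligands, 3 were higher, namely Tnc (6.504 and 13.1 CPM, 1.01), Thbs1 (3.19 and 5.26, 0.72) and Cd74 (62.1 and 93.2, 0.59). Over all genes of the tumour-like gate 0.736% were lower and 2.33% higher. Some of these calls rested on the cells with Krt16 or Klk8. Without them Itgb8 was under 1.5-fold (5.26 and 7.725 CPM, 0.55) and Mmp12 was at 1.75 and 1.54 CPM (-0.19, -0.66 to 0.28). Mmp2 remained lower (-0.79), Tnc (0.94), Thbs1 (0.64) and Cd74 (0.59) remained higher, and the protease gene Mmp3 was then higher (4.46 and 8.165 CPM, 0.87, 0.63 to 1.12). Over all genes of those cells 0.423% were lower and 2.52% higher. The ERM linkers of CD44, Ezr, Rdx and Msn, had no member past 1.5-fold in the macrophage, T cell or tumour-like gates. Of the SIBLING family only Spp1 had at least 100 UMIs in any gate read, and Ibsp had 0 UMIs in macrophages of both libraries.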

How the data were processed

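The authors deposited UMI counts, as whole numbers without scaling. Cell Ranger wrote them, in version 6.1.0 per the file headers, while the submitters' processing notes name version 3.1.0; the genome build is not given in the sources used here. Cells with fewer than 200 genes or more than 20% mitochondrial UMIs were left out. Doublets were removed by Scrublet rank, 0.8% per 1000 cells (1148 control, 1322 knockdown cells). UMIs were summed per gene, cell class and library and scaled to CPM. Each group is 1 library, so there is no test, and each gene was measured where 1 library had at least 100 UMIs. The thinning and the ratio with its range were tried on simulated Poisson counts, which hold no spread between cells beyond counting. Gates and doublet removal were not tried on simulated data. Intervals are exact Poisson for levels and Clopper-Pearson for shares, at 95%. The members and lists were chosen with earlier results of these data known. Text names all 7 members, the 10 genes most like Spp1 and, from 9 lists, up to 4 genes past 1.5-fold per direction and gate. A gene, and a split of macrophages that uses it, are not reported here and were left out of the ranking and lists. Further cell classes rest on marker genes, so names end in -like. Tools were scanpy 1.11.5 for Scrublet and, under Python 3.11.15, pandas 2.3.3, scipy 1.17.1, numpy 2.4.6 and matplotlib 3.10.9. Alternatives covered doublets, scaling, cell weights, gates, thinning and filters.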

Additional observations from a re-analysis of the deposited data

Results flagged for a closer look

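Spp1 differed in direction between cell classes under the same contrast. Its log2 ratio of knockdown over control was -1.14 in macrophages and -1.14 in tumour-like cells, and 1.24 in T cells outside the macrophage gate and 1.85 in NK-like cells. The ratio in tumour-like cells turned to 0.37 without those with Krt16 or Klk8, and the whole T cell gate was at 0.37, or -0.08 with no doublet removal. In the tumour-like cells without Krt16 or Klk8, Spp1 per 1000 UMIs of the C1q genes and Apoe was near level, at 31.0 and 32.3. With 1 library per group, the difference between the classes was not tested.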

How the results depend on the processing

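The Spp1 ratio in macrophages stayed below 0 in all 11 alternatives, from -1.48 to -0.67. It was -1.05 with no doublet removal, -1.48 with Scrublet's own threshold, -1.24 with TMM and -1.24 with the median of ratios, -1.09 with cells weighted equally, -1.03 with stricter gates, -0.93 thinned to 3000 UMIs, -0.92 without Hmga2 cells and -0.67 without Hmga2, Dcn or Col3a1 cells. Scrublet's threshold called 1013 doublets in the control but 1 in the knockdown tumour, so it had not worked in the knockdown library.

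For the thinned alternative all gates were drawn anew on the thinned counts. The minimum for tumour-like cells was then 3000 in place of 5000 UMIs, so the cells were not the same. Spp1 in tumour-like cells was -0.60 when thinned and turned to 0.37 without Krt16 or Klk8 cells. In the T cell gate it turned to -0.08 with no doublet removal and was 0.14 with Scrublet's own threshold, 1.01 with equal weights, 1.17 in cells of exactly 1 gate, 1.46 when thinned and 0.93 without Hmga2, Dcn or Col3a1 cells. The count of receptor and gate pairs past 1.5-fold was 1 in place of 0 with cells of exactly 1 gate, when thinned and without Hmga2 cells. Cd44 in tumour-like cells stayed within its range in all 10 alternatives. Of the other 140 values, 109 stayed within the range of their ratio, 31 left it and 18 had the opposite sign. Those 18 belong to 4 ratios whose range included 0, namely Cd44, Itgb1 and Itga4 in macrophages and Itgb5 in T cells. The causes were not tested. Splits on Hmga2, Dcn, Col3a1, Krt16 and Klk8, and the T cell ratio's alternatives, were chosen after seeing the data. No paired analysis was possible because each group is 1 library. Depth limits Itgb3, and 46 to 59 cells limit the NK-like, dendritic-like and knockdown monocyte-like values.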

Other observations

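Cells in none of the 3 gates (1048 control, 1185 knockdown) had Spp1 at 469 CPM (455 to 483) in the control tumour and 221 (211 to 232) in the knockdown tumour, for a log2 ratio of -1.08 (-1.20 to -0.97). Endothelial-like cells, 13 and 14 in number, had the highest Itgb3 CPM of the classes read, at 63.9 CPM (31.9 to 114, 11 UMIs) and 156 (101 to 230.5, 25 UMIs), and Itgb1 at 679 and 968 CPM. Of their 26 Spp1 UMIs in the knockdown tumour, all came from 1 cell. T cells with Cd4 and no Cd8 (33 and 25) had 3 and 15 Spp1 UMIs, and T cells with Foxp3 (19 and 13) had 8 and 15.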
